A study of Mus musculus with 6 samples.

Results

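The Slc25 genes encode the mitochondrial carriers, and they were chosen here by name: protein-coding mouse genes whose symbol is Slc25a followed by a number. Of the 37620 gene identifiers counted in each library, 47 were such genes, and 39 of those were among the 12068 genes with enough counts to test. RNA sequencing was done on mature brown fat cells of C57BL/6 mice aged 6 weeks, which are the cells that float after brown fat is digested with collagenase and spun. The series set 3 libraries labelled wild type against 3 labelled knockout for PHOSPHO1, a phosphatase that releases choline and ethanolamine from their phosphates, and each library pooled 3 mice. The labels name no construct, Cre driver or treatment, and pooling removes the spread between single mice. In such bulk libraries, fewer cells of a type and less RNA per cell cannot be told apart.

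Carriers of this family are small proteins of the inner mitochondrial membrane, a few of which sit in other membranes. Most work as exchangers that swap a metabolite of the matrix for one of the cytosol, so that ATP, phosphate, citrate, amino acids, acylcarnitines and cofactors can cross a membrane that is otherwise closed to them. In brown fat, the same protein fold gives the uncoupling protein that turns the proton gradient into heat, and carriers of this family bring in the acylcarnitines and branched-chain amino acids that are burned there.

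Libraries held 10576800 to 14239307 counts. Genes of the mitochondrial genome took 39.1% to 56.5% of them, and the share was 54.3% or more in wild-type library 3 and knockout-labelled libraries 2 and 3. Phospho1 had 13, 5 and 5 counts in wild-type libraries 1, 2 and 3, against 18, 15 and 17 in knockout-labelled libraries 1, 2 and 3, so its counts did not check the labels and each direction given here is that of the libraries so labelled. The 10 genes listed as brown adipocyte markers summed to 20389 to 33436 CPM in each library. CPM are counts relative to the library size, scaled by edgeR's TMM method. Much of the sum came from 1 gene, Fabp4, with 12161 to 19698 CPM, whereas Pparg had 220 to 285 CPM. Skeletal muscle markers summed to 1574 CPM in wild-type library 3 and to 69.9 to 166 CPM in the other libraries.

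Levels were ranked by CPM per kilobase of merged exons, since long genes collect more reads. Slc25a4, the main ADP/ATP carrier of heart and muscle, led the family at 171 ± 33.1 CPM per kb (mean ± SD, n = 3 wild-type libraries). Slc25a1, which exports the citrate used to make fatty acids, followed at 104 ± 3.68 CPM per kb, and Slc25a20, which brings acylcarnitines in for oxidation, at 85.8 ± 12.7. Below these stood Slc25a5, the ADP/ATP carrier of dividing and many other cells, at 80.2 ± 24.5 CPM per kb, and Slc25a11, the oxoglutarate carrier of the malate-aspartate shuttle, at 56.7 ± 15.7. Slc25a51, an NAD importer, stood at 38.3 ± 3.32 CPM per kb, and Slc25a39, a glutathione importer, at 37.7 ± 8.82. The lowest tested member was Slc25a13 at 0.280 CPM per kb.

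The order among neighbours was loose. Of the 38 neighbouring pairs in this order, 34 overlapped between the 3 wild-type libraries. The 4 pairs that did not overlap were Slc25a4 above Slc25a1, Slc25a1 above Slc25a20, Slc25a46 above Slc25a16, and Slc25a44 above Slc25a10. Of the top 8, 7 stayed in the top 8 when levels were set per longest transcript, and 7 when set per median transcript. Slc25a17, a peroxisomal cofactor carrier, entered in both cases, for Slc25a51 in the former and Slc25a5 in the latter. Per kb of the median transcript, Slc25a1 at 299 CPM per kb stood above Slc25a4 at 252, so the leading gene depends on the length used. By counts not divided by length, Slc25a20 supplied 14.7% and Slc25a4 14.3% of the wild-type counts of the family.

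**Figure D1:**
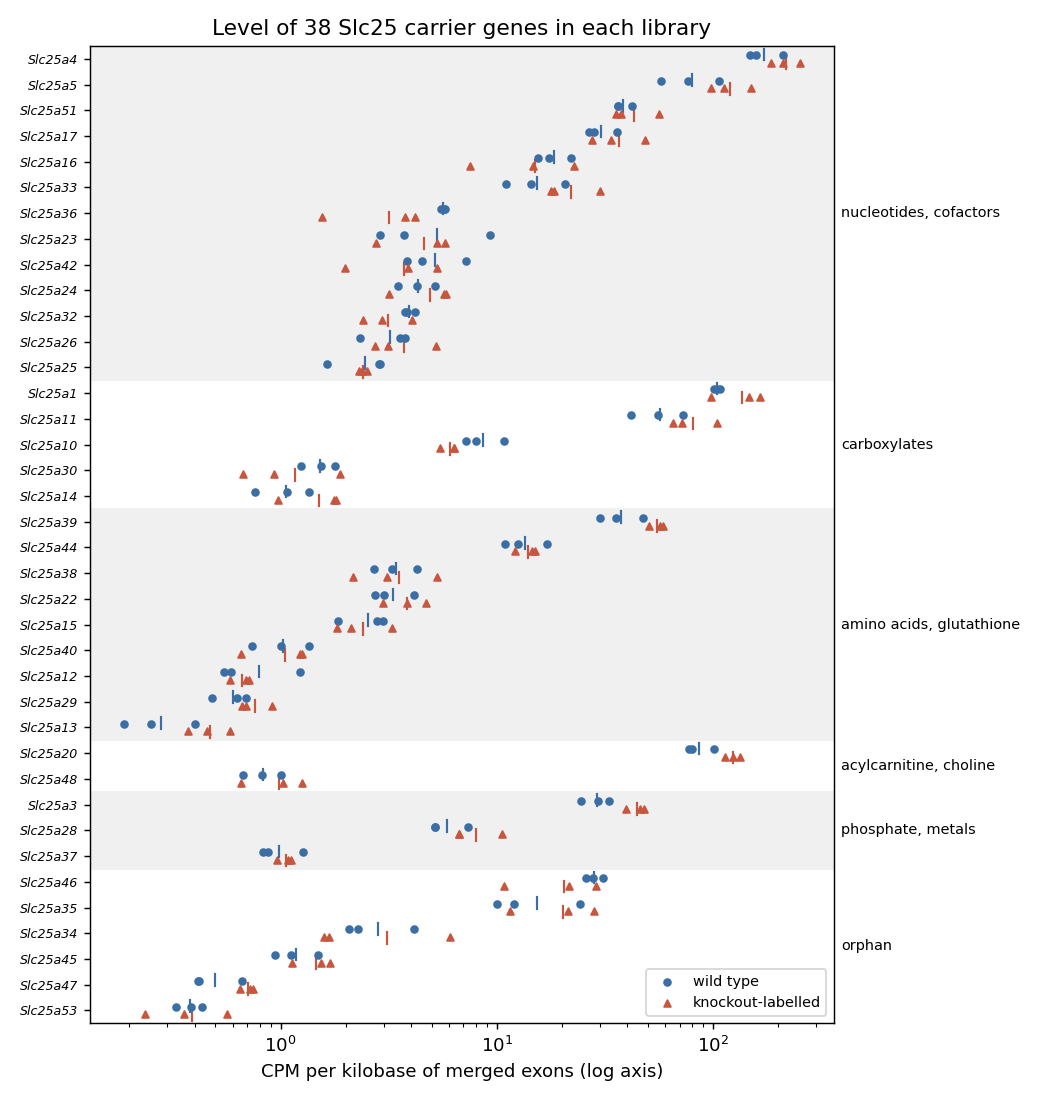
Level of 38 tested carrier genes in every library, in CPM per kilobase of merged exons on a log axis, with genes grouped by substrate. Slc25a4 stands highest with a wild-type mean of 171 CPM per kb, Slc25a13 lowest at 0.280, and the wild-type and knockout-labelled points of most genes lie among each other.

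8 members had too few counts to test. Slc25a31, an ADP/ATP carrier of male germ cells, had 4, 1 and 1 counts under the wild-type label and 1, 2 and 0 under the knockout label. Slc25a2 (an ornithine carrier), Slc25a18 (a glutamate carrier), Slc25a21 (the oxoadipate carrier), Slc25a27 (a brain uncoupling protein homolog) and Slc25a43, an orphan, had between 0 and 5 counts in each library. Slc25a41 and Slc25a54, relatives of the ATP-Mg/phosphate carriers, had 0 counts in all 6 libraries. A count of 0 allows up to 3 counts, or 0.211 to 0.284 CPM of the total counts of a library, and it covers counting error only.

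No carrier gene passed the test between the labels. With edgeR's quasi-likelihood test and an adjusted p threshold of 0.05, 0 of 39 members were higher and 0 were lower in the knockout-labelled libraries, where 9.16% of all tested genes passed (1.63% higher and 7.52% lower). DESeq2 also called 0 members, against 15.7% of its tested genes, and limma-voom called 0, against 6.07%. At an unadjusted p under 0.05 there were 4 members, Slc25a3, Slc25a39 and Slc25a20 on the higher side and Slc25a36 on the lower side, where the share over all genes was 30.8% (12.3% higher and 18.6% lower). The groups did not overlap for 5 members, 3 with the knockout-labelled libraries above and 2 below, where the share over all genes was 35.4% (15.8% above and 19.6% below). Standard errors of the members' log2 fold changes ran from 0.224 to 0.498, so a change of modest size in a single carrier was not detectable with 3 libraries a group.

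The sign of the family's values depended on library scaling. With TMM scaling 28 members had a positive log2 fold change and 11 a negative one, and the median was 0.20 against 0.03 over all tested genes, whereas with total counts alone 18 were positive and 21 negative, and the medians were -0.05 and -0.23. In both scalings the members' median stood above that of all genes. Over all genes, 51.4% of TMM-scaled fold changes were positive. The 10 members with a wild-type mean of at least 100 CPM included 9 with positive values and had a median of 0.44, and the 857 genes of all kinds at that level had a median of 0.20, with 62.3% positive.

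**Figure D2:**
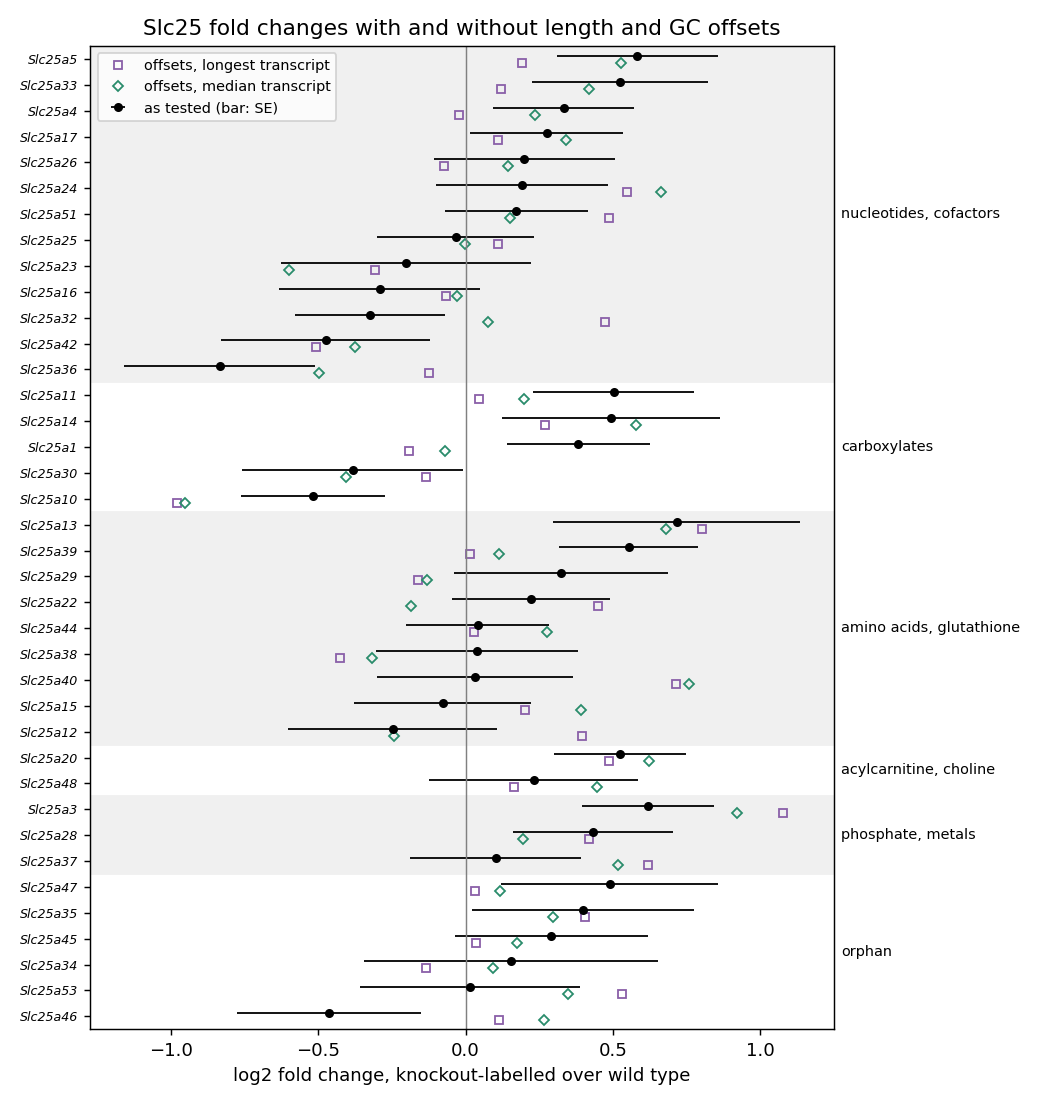
Log2 fold change of the knockout-labelled over the wild-type libraries for 38 carrier genes, as tested with its standard error (black), and with length and GC offsets from the longest or the median transcript. Values run from -0.84 for Slc25a36 to 0.72 for Slc25a13, and offsets move Slc25a3 from 0.62 to 1.08 or 0.92 and Slc25a10 from -0.52 to -0.98 or -0.95.

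Carriers of nucleotides and cofactors made the largest group, with 17 genes, of which 14 were tested. None passed the test, 8 were positive and 6 negative, and the median log2 fold change was 0.18, or 0.07 and 0.11 with length and GC offsets from the longest and the median transcript. The ADP/ATP carriers lead this group. Slc25a4 (ENSMUSG00000031633) stood at 348, 492 and 369 CPM in wild-type libraries 1, 2 and 3 and at 592, 436 and 497 CPM in knockout-labelled libraries 1, 2 and 3; values that follow keep this order. Library 1 of the knockout label was the highest, and the groups overlapped. The log2 fold change was 0.33 (SE 0.240, adjusted p = 0.353), and -0.02 with offsets from the longest transcript.

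Slc25a5 (ENSMUSG00000016319) had 126, 175 and 94.9 CPM against 246, 162 and 185 CPM. The lowest library was wild-type 3 and the highest knockout-labelled 1, and wild-type 2 lay inside the range of the knockout-labelled libraries. The log2 fold change was 0.58 (SE 0.274, adjusted p = 0.172). It was 0.19 with offsets from the longest transcript, 0.53 with those from the median transcript, and 0.37 without wild-type library 3. Slc25a5 has 11 processed copies in the genome that match its transcript at 85.1% to 98.3% identity, and the 6 of them with a row held 213 counts in all against 12421 for the gene, or 1.71%. The longest identical run between the coding sequence of Slc25a5 and such a copy was 145 bases, and the untranslated parts were not compared. Reads from that stretch could be assigned to either.

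Slc25a51 brings NAD into the matrix, where the dehydrogenases that feed the respiratory chain reduce it. Slc25a51 (ENSMUSG00000045973) had 200, 232 and 201 CPM against 310, 207 and 197 CPM, so that only knockout-labelled library 1 stood out. The difference was 0.17 on the log2 scale (SE 0.243, adjusted p = 0.642), and it turned to -0.06 with total counts alone.

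Slc25a33 and Slc25a36 import pyrimidine nucleotides, which mitochondria need to copy and transcribe their genome. Slc25a36 (ENSMUSG00000032449) had 55.1, 52.8 and 54.9 CPM under the wild-type label and 40.2, 36.01 and 14.9 CPM under the knockout label. All 3 knockout-labelled libraries lay below all 3 wild-type libraries, and library 3 was far below the other two. The log2 fold change was -0.84 (SE 0.324), the lowest of the family, with an edgeR unadjusted p of 0.0244 and an adjusted p of 0.111. Without knockout-labelled library 3 it was -0.52 (adjusted p = 0.224), and with offsets from the longest transcript, 5227 bases, it was -0.12. Slc25a33 had 27.01, 38.97 and 20.7 CPM against 56.5, 33.5 and 34.8 CPM, with overlapping groups; the fitted difference was 0.52 (SE 0.299, adjusted p = 0.249).

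Slc25a42, which imports coenzyme A, was among the members with the smallest p on the negative side. Slc25a42 (ENSMUSG00000002346) had 27.1, 23.1 and 43.2 CPM against 23.3, 31.8 and 11.9 CPM. The highest library was wild-type 3 and the lowest knockout-labelled 3, with the other 4 mixed. Its log2 fold change was -0.47 (SE 0.354, adjusted p = 0.371), and leaving out wild-type 3 or knockout-labelled 3 brought it to -0.19 or -0.18. Slc25a32 (ENSMUSG00000022299), linked to folate and FAD transport, had 23.3, 25.5 and 22.8 CPM against 24.6, 18.0 and 14.6 CPM. Its groups overlapped through knockout-labelled library 1, and the log2 fold change of -0.32 (SE 0.255, adjusted p = 0.394) became 0.47 with offsets from its longest transcript of 5905 bases and 0.08 with offsets from the median transcript.

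Other tested members of this group were the ATP-Mg/phosphate carriers Slc25a23, Slc25a24 and Slc25a25, the coenzyme A-linked Slc25a16, the peroxisomal cofactor carrier Slc25a17 and the S-adenosylmethionine carrier Slc25a26. Their log2 fold changes lay between -0.29 (Slc25a16) and 0.28 (Slc25a17), and each pair of groups overlapped. Slc25a16 was lowest in knockout-labelled library 3, with 36.04 CPM there and 70.1 to 109 CPM in the other libraries, and its value was 0.01 without that library.

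Among carriers of carboxylates, 5 of 7 were tested, none passed, 3 were positive and 2 negative, and the median was 0.38, or -0.14 and -0.07 with the offsets. Slc25a1 (ENSMUSG00000003528) had 233, 225 and 218 CPM against 316, 211 and 355 CPM. The wild-type libraries were nearly level, and knockout-labelled library 2 lay below them while the other two lay above. The fitted log2 value of 0.38 (SE 0.244, adjusted p = 0.297) turned to -0.19 and -0.07 with offsets from the longest and the median transcript.

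Slc25a10 and Slc25a11 are relatives with different partners: the former swaps malate or succinate for phosphate, the latter oxoglutarate for malate. Slc25a10 (ENSMUSG00000025792) had 24.98, 37.3 and 27.6 CPM against 18.8, 21.9 and 21.95 CPM, all 3 knockout-labelled libraries below the wild-type ones. The log2 fold change was -0.52 (SE 0.244), with an edgeR unadjusted p of 0.0557 and an adjusted p of 0.173. Slc25a10 had the lowest value of the family with offsets for length and GC, -0.98 (adjusted p = 0.0621) with the longest transcript and -0.95 (adjusted p = 0.0508) with the median one, still short of the threshold. Slc25a11 (ENSMUSG00000014606) had 118, 154 and 88.0 CPM against 221, 138 and 152 CPM, with wild-type 2 inside the range of the other group. A log2 fold change of 0.50 was fitted (SE 0.273, adjusted p = 0.228), or 0.05 with offsets from the longest transcript; 8.9% of its exon bases overlap Rnf167 on the other strand. Slc25a14 and Slc25a30, relatives of the uncoupling proteins, had log2 fold changes of 0.49 and -0.38 with overlapping groups.

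Carriers of amino acids and glutathione numbered 11, with 9 tested, 0 past the threshold, 7 positive and 2 negative, and a median of 0.04, or 0.20 and 0.11 with the offsets. Slc25a39 (ENSMUSG00000018677), which brings glutathione into the matrix, had 98.5, 130 and 82.6 CPM against 161, 139 and 157 CPM. The groups did not overlap, and the gap between wild-type 2 and knockout-labelled 2 was small. For Slc25a39 the log2 fold change was 0.55 (SE 0.236), with an edgeR unadjusted p of 0.0374 and an adjusted p of 0.139. Without wild-type library 2 it was 0.75 with an edgeR adjusted p of 0.0483, the only call of a member in any alternative run. That run called 688 genes higher and 1383 lower of the 12323 it tested. With offsets the Slc25a39 value was 0.02 (longest transcript, 1685 bases) or 0.11 (median transcript).

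Slc25a44, which carries branched-chain amino acids into the mitochondria of brown fat, had 44.9, 38.97 and 61.3 CPM against 43.5, 51.9 and 53.8 CPM. The groups overlapped fully, and the log2 fold change was 0.04 (SE 0.242, adjusted p = 0.923). The aspartate/glutamate carriers of the malate-aspartate shuttle were low in these cells: Slc25a12 had a wild-type mean of 5.81 ± 2.82 CPM and Slc25a13 of 1.07 ± 0.413 CPM. Slc25a13 had the highest fold change of the family, 0.72 (SE 0.419, adjusted p = 0.260), but from only 8 to 27 counts a library. The glutathione carrier Slc25a40, the glutamate carrier Slc25a22, the ornithine carrier Slc25a15, the glycine carrier Slc25a38 and the basic amino acid carrier Slc25a29 had log2 fold changes between -0.08 and 0.32, all with overlapping groups.

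Of the 2 carriers of acylcarnitine and choline, Slc25a20 was the most counted member of the family. Slc25a20 (ENSMUSG00000032602) takes long-chain acylcarnitines across the inner membrane, after carnitine palmitoyltransferase 1 has made them and before carnitine palmitoyltransferase 2 unpacks them. It had 373, 486 and 387 CPM against 598, 551 and 646 CPM, with no overlap. The means were 416 ± 61.7 and 598 ± 47.6 CPM (SD, n = 3 each), and the log2 fold change was 0.53 (SE 0.224), with an edgeR unadjusted p of 0.0377 and an adjusted p of 0.139. With offsets it was 0.49 or 0.62. Slc25a48, which takes up choline, had 2.21 to 4.25 CPM over the 6 libraries, and its log2 fold change was 0.23 (SE 0.355, adjusted p = 0.671).

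Phosphate and metal carriers were 3 tested genes, none past the threshold, all with positive values and a median of 0.43, or 0.62 and 0.52 with the offsets. Slc25a3 (ENSMUSG00000061904), which imports the phosphate for ATP synthesis and also copper for cytochrome oxidase, came nearest to the threshold of any member. It had 136, 183 and 163 CPM against 255, 219 and 266 CPM. All 3 knockout-labelled libraries were above all 3 wild-type libraries, at 247 ± 24.4 against 161 ± 23.7 CPM (SD, n = 3 each). Slc25a3 had a log2 fold change of 0.62 (SE 0.224), with an edgeR unadjusted p of 0.0175 and an adjusted p of 0.0944. With offsets for length and GC it was 1.08 (adjusted p = 0.0621) from the longest transcript of 4039 bases and 0.92 (adjusted p = 0.0508) from the median transcript of 1368 bases. The mitochondrial iron importers Slc25a28 and Slc25a37 had log2 fold changes of 0.43 and 0.10 with overlapping groups.

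Members without a settled substrate, or with another role, numbered 7, with 6 tested, 0 past the threshold, 5 positive and 1 negative, and a median of 0.22, or 0.08 and 0.22 with the offsets. The negative one, Slc25a46 (ENSMUSG00000024259), is an outer-membrane protein of mitochondrial fusion and fission. It had 140, 167 and 152 CPM against 157, 117 and 58.8 CPM, with knockout-labelled library 1 inside the wild-type range and library 3 far below. Its log2 fold change of -0.46 (SE 0.312, adjusted p = 0.323) was -0.17 without that library, and turned to 0.12 and 0.27 with offsets from the longest and the median transcript. Slc25a45, Slc25a47 and Slc25a53 had wild-type means of 1.49 to 3.27 CPM and overlapping groups.

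Promoters are shown for the phosphate carrier Slc25a3 and the pyrimidine nucleotide carrier Slc25a36, the members with the smallest p on either side, and for the dicarboxylate carrier Slc25a10, the other member below in all knockout-labelled libraries. Each is the 250 bases before the gene's start on its own strand, from RefSeq on GRCm38: chr10:91123968-91124217 (minus strand), chr9:97111042-97111291 (minus strand) and chr11:120491587-120491836 (plus strand). Capitals mark matches, on either strand, to 4 motifs: GCGCA and GCGC with any base between them, bound by the nuclear respiratory factor NRF1; CCAAT, bound by NF-Y; TGACGTCA, the cAMP response element; and CACGTG, the E-box.
Slc25a3: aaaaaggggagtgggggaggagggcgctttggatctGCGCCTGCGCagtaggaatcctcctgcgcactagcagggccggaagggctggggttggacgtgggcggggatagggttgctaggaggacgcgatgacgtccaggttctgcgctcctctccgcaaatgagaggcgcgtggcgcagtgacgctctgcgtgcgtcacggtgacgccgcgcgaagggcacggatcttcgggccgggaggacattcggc
Slc25a36: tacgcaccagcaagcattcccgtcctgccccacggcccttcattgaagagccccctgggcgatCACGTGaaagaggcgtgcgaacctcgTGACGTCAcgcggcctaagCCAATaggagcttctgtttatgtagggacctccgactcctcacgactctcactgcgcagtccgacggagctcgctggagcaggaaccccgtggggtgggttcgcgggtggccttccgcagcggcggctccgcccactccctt
Slc25a10: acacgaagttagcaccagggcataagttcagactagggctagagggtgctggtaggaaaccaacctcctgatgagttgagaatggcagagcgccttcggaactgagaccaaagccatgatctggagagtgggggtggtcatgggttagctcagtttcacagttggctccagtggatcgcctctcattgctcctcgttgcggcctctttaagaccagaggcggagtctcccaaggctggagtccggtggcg
The Slc25a3 promoter held the NRF1 motif, the Slc25a36 promoter held an E-box, a cAMP response element and a CCAAT box in that order towards the start, and the Slc25a10 promoter held none of the 4.

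RefSeq promoters were matched for 36 of the 47 members. The NRF1 motif was in 2 of these members (5.56%), Slc25a3 and Slc25a31, against 4.23% of 27025 genes with promoters of the same length. A gene was counted if any of its promoters held the motif. The cAMP response element was in 2 (5.56%), Slc25a25 and Slc25a36, against 1.77% of all. CCAAT was in 18 (50%) against 37.5%, and CACGTG in 7 (19.4%) against 6.86%. The E-box members were Slc25a1, Slc25a13, Slc25a14, Slc25a15, Slc25a31, Slc25a33 and Slc25a36; their log2 fold changes, where tested, ranged from -0.84 to 0.72. The matches marked do not overlap each other, and a match describes the letters of the sequence only.

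Related carriers were compared by their ratio within each library, which does not depend on library scaling but still depends on transcript length. For 9 pairs, the difference between labels was tested by a two-sided exact permutation test over libraries, in which 3 against 3 cannot give a p below 0.1. In 3 pairs the groups did not overlap, each with an exact permutation p of 0.1, or 0.3 after Benjamini-Hochberg adjustment over the 9 pairs. The log2 ratio of Slc25a33 to Slc25a36 was -1.03, -0.44 and -1.40 against 0.49, -0.11 and 1.22. Of the pyrimidine nucleotide carriers, Slc25a36 thus had more counts in each wild-type library, and Slc25a33 had more in knockout-labelled libraries 1 and 3. The mean difference was 1.49, the largest of the 9 pairs before any correction for length, between carriers whose longest transcripts measure 1887 and 5227 bases. With offsets from the longest transcript the log2 fold changes of Slc25a33 and Slc25a36 were 0.12 and -0.12, and with those from the median transcript 0.42 and -0.50.

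The log2 ratio of Slc25a10 to Slc25a11 was -2.24, -2.05 and -1.67 against -3.55, -2.66 and -2.79, a mean difference of -1.01. Every library held fewer counts of the dicarboxylate than of the oxoglutarate carrier, and the gap was wider in each knockout-labelled library. These transcripts are similar in length, 2023 and 1711 bases. The log2 ratio of Slc25a4 to Slc25a5 was 1.47, 1.49 and 1.96 against 1.27, 1.43 and 1.43, a mean difference of -0.27. Wild-type library 3 stood apart from the other 5, and without it the difference was -0.11 (exact permutation p = 0.3). In that library Slc25a5 had its lowest level, 94.9 CPM, and Slc25a4 stood at 369 CPM, inside its wild-type range of 348 to 492 CPM. The skeletal muscle markers summed to 1574 CPM there, and their part in the ratio was not tested. The other 6 pairs overlapped, with p from 0.3 to 0.9. Pairs shared identical coding runs of at most 11 to 23 bases, so few reads could belong to both members of a pair.

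**Figure D3:**
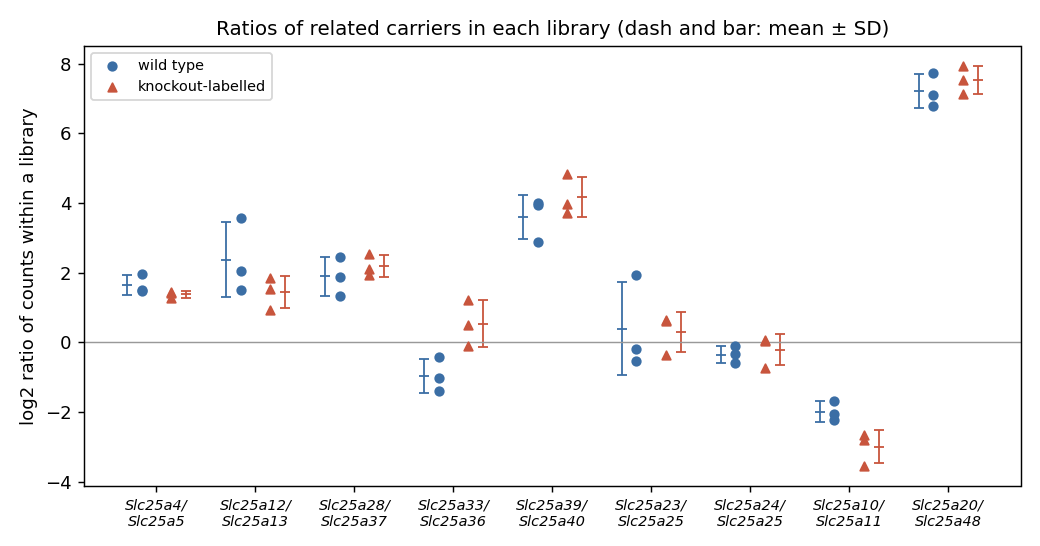
Log2 ratio of counts of related carriers within each library for 9 pairs, with points for libraries and a dash and bar for the mean ± SD of each label. Without correction for length, Slc25a33/Slc25a36 separates the labels most, with a mean difference of 1.49; Slc25a10/Slc25a11 differs by -1.01, and most other pairs overlap.

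All 47 members together made up 0.540%, 0.611% and 0.530% of the nuclear gene counts under the wild-type label, against 0.679%, 0.611% and 0.625% under the knockout label. Wild-type library 2 and knockout-labelled library 2 were level, and the other wild-type libraries were lower than every knockout-labelled one. The means were 0.560% ± 0.0445 and 0.638% ± 0.0361 (SD, n = 3 each), a difference of 0.0778 points with p = 0.2 in a two-sided exact permutation test whose smallest p is 0.1. As a share of all counts, mitochondrial genome included, the means were 0.311% ± 0.0649 and 0.322% ± 0.0798, and the difference was 0.0104 points (exact permutation p = 0.9).

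The members' fold changes moved with transcript length, as those of all genes did. Across the 39 members, Spearman's rho between log2 fold change and the longest transcript was -0.55, and across 11863 tested genes with a length it was -0.58; genes within a library are not independent, and no p is given. The 20 members with a longest transcript of up to 3362 bases had a median log2 fold change of 0.33 and 3 negative values, and the 19 longer ones a median of 0.03 and 8 negative values. Over all tested genes, the shorter and longer sides had medians of 0.34 and -0.39. The libraries' slopes of log2 level on log2 length were 0.306, -0.0255 and 0.300 for the wild-type and -0.238, -0.0932 and -0.249 for the knockout-labelled libraries, so the label and the length trend cannot be told apart in full. With offsets for length and GC, 0 members passed the test, where 0.00829% (longest transcript) and 1.84% (median transcript) of all genes did. The members' medians were then 0.11 and 0.17, and 6 and 5 of the 39 members had an unadjusted p under 0.05, where 23.1% and 26.2% of all genes did. The sign of the fold change turned for 11 members with offsets from the longest transcript and for 8 with those from the median one.

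**Figure D4:**
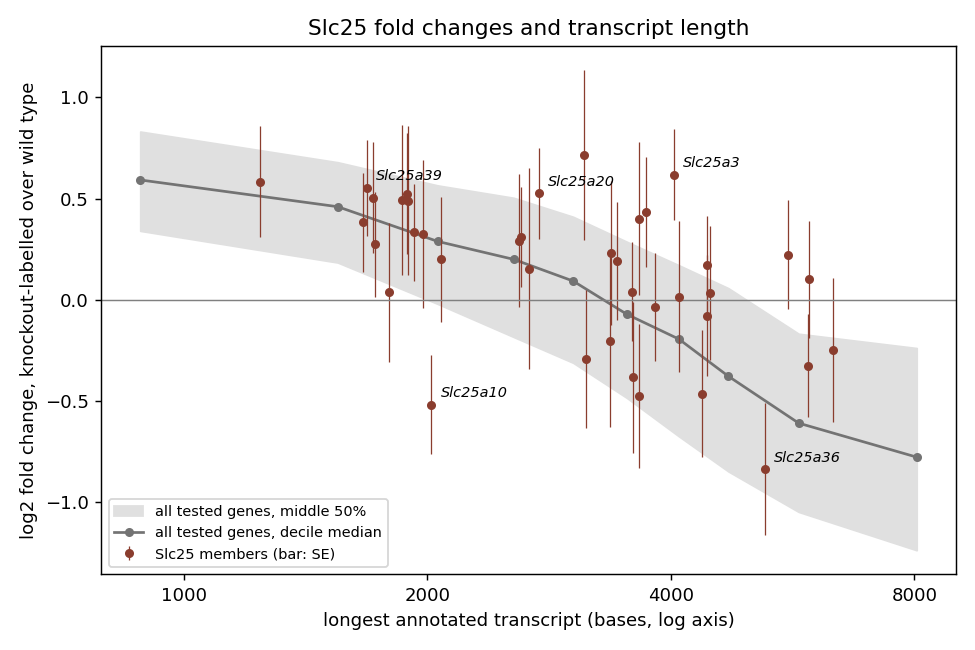
Log2 fold change of 39 carrier genes with standard errors against the length of the longest annotated transcript in bases (log axis), over the decile medians and middle 50% of all tested genes (grey). Members' values fall with length as those of all genes do, with a rho of -0.55 against -0.58. Above 3362 bases, the members' median was 0.03 against -0.39 over all genes.

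Slc25a35, Slc25a23, Slc25a44 and Slc25a34 are set here beside the mitochondrial genome share, and they were picked with their values in view. Their highest library was 1.57 (Slc25a44) to 3.83 (Slc25a34) times the lowest. For Slc25a36 and Slc25a42, which were not picked, it was 3.70 and 3.61 times, and both were lowest in knockout-labelled library 3. Slc25a35, an orphan carrier, had 36.9, 44.1 and 88.9 CPM against 42.1, 78.1 and 104 CPM. Its 3 high libraries were wild-type 3 and knockout-labelled 2 and 3, the same 3 in which the mitochondrial genome took 54.3%, 54.3% and 56.5% of counts, against 39.1% to 40.7% in the others. The log2 fold change was 0.40 (SE 0.378, adjusted p = 0.479), or 0.87 (adjusted p = 0.173) without wild-type library 3. Rangrf, which overlaps 31.3% of the exon bases of Slc25a35 on the other strand, had 0.538 to 1.06 CPM.

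Slc25a23, an ATP-Mg/phosphate carrier, had 19.6, 15.2 and 49.3 CPM against 14.6, 30.4 and 27.9 CPM. The same 3 libraries were its highest, and wild-type 3 was above all; its log2 fold change was -0.20 (SE 0.424) with all libraries and 0.46 without wild-type 3. Slc25a44 had its 3 highest values, 51.9 to 61.3 CPM, in these libraries as well. Slc25a34, an orphan close to Slc25a35, was high in wild-type 3 (11.04 CPM) and knockout-labelled 2 (16.2 CPM) but not in knockout-labelled 3 (4.49 CPM). The part of the mitochondrial genome share in these values was not tested, nor was that of the skeletal muscle markers, which were high in wild-type library 3 alone.

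**Figure D5:**
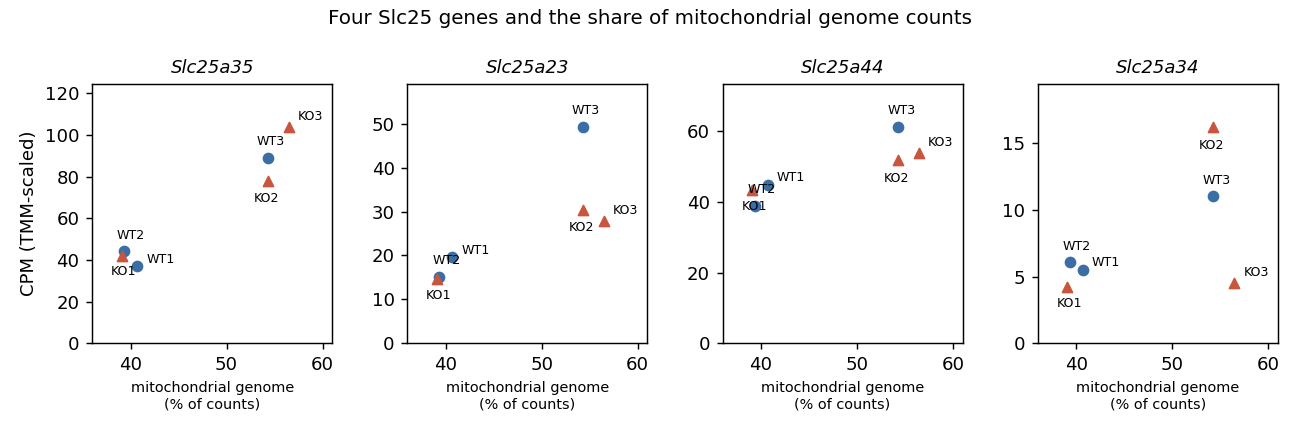
CPM of Slc25a35, Slc25a23, Slc25a44 and Slc25a34 in each library against the share of counts from genes of the mitochondrial genome (percent). Slc25a35 stands at 78.1 to 104 CPM in the 3 libraries above 54% and at 36.9 to 44.1 CPM in the 3 below 41%.

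Genes that work beside the carriers were described from 4 lists. Of the other proteins with the carrier fold, 0 of 5 passed the test in edgeR, DESeq2 or limma-voom. At an edgeR unadjusted p under 0.05, 2 were higher and 0 lower, where 12.3% and 18.6% of all genes were. The median log2 fold change of these proteins was 0.65, or 0.40 and 0.38 with the offsets. The smallest p belonged to the uncoupling protein gene Ucp1 (0.66, adjusted p = 0.113) and to Mtch1 (0.70, adjusted p = 0.118) and Mtch2 (0.49, adjusted p = 0.191), which encode outer-membrane insertases. Of the 12 tested genes of carrier import, whose TIM chaperones and TIM22 complex place carriers in the inner membrane, 0 passed in edgeR. DESeq2 called 1 higher, Timm10, with an adjusted p of 0.0403, where it called 493 of its 11744 tested genes higher. At an edgeR unadjusted p under 0.05, 5 were higher and 1 lower, where 12.3% and 18.6% of all genes were. The median of this list was 0.57, or 0.30 and 0.42 with the offsets. The log2 fold change was 0.80 (adjusted p = 0.0748; 0.20 and 0.52 with the offsets) for the chaperone Timm10 and 1.18 (adjusted p = 0.116) for Timm8a1. The carrier receptor Tomm70a stood at -0.68 (adjusted p = 0.0805) and turned positive, to 0.16 and 0.26, with the offsets.

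Of 18 other mitochondrial transporters, 0 were higher and 1 was lower by edgeR, where 1.63% and 7.52% of all genes were. DESeq2 called 0 higher and 2 lower, where it called 493 and 1349 of its 11744 tested genes. limma-voom called 0 and 1, where it called 113 and 619 of 12068 genes. The median was 0.25, and 0 passed with either kind of offset. The serine carrier Sfxn1 stood at -0.67 (edgeR adjusted p = 0.0759, DESeq2 adjusted p = 0.0463). With offsets it was -0.22 (longest transcript) or 0.07 (median transcript). Of 14 enzymes of the shuttles that carriers serve, 0 passed by any of the 3 tools, and the median was 0.14. At an edgeR unadjusted p under 0.05, 1 was higher and 1 lower, where 12.3% and 18.6% of all genes were. Mitochondrial malate dehydrogenase Mdh2 stood at 0.61 (adjusted p = 0.104), Cpt1a, which makes the acylcarnitines that Slc25a20 imports, at -0.95 (adjusted p = 0.112), and malic enzyme Me1 at -0.52 (adjusted p = 0.168).

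Markers of the fat cells themselves and of cells that could be carried along were summed as well. Of the brown adipocyte markers, 1 of 10 passed in edgeR, Cox7a1, higher by a log2 fold change of 1.02 (edgeR adjusted p = 0.0455). Over all tested genes, edgeR called 1.63% higher and 7.52% lower. DESeq2 called 2 of these markers higher, Cox7a1 and Cox8b, where it called 493 of its 11744 tested genes higher. limma-voom called 1 higher, Cox7a1, where it called 113 of 12068 genes higher. With offsets Cox7a1 stood at 0.29 (adjusted p = 0.344) and 0.55 (adjusted p = 0.161), and the list's median of 0.21 became -0.09 and 0.16. Cox8b at 0.92 (adjusted p = 0.0846) and Cidea at 0.47 (adjusted p = 0.246) came next by p. Of 12 tested muscle markers 0 passed by any tool and 0 had an edgeR unadjusted p under 0.05, where 30.8% of all genes did. All 12 were negative, with a median of -2.83 and the excess in wild-type library 3; Myh1 and Myh2 had 0 counts in knockout-labelled library 1. Myh4 stood at -4.98 (adjusted p = 0.225), Mb at -1.49 (adjusted p = 0.234) and Tnnt3 at -3.69 (adjusted p = 0.240).

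Erythroid markers summed to 366 to 1378 CPM under the wild-type label and 1210 to 3506 CPM under the knockout label. Of the 5 tested, 2 rose, Hba-a1 (1.85, adjusted p = 0.0229) and Alas2 (1.42, adjusted p = 0.0414), and Hbb-bs stood at 1.55 (adjusted p = 0.0787). The red cell membrane gene Slc4a1 had 0 to 3 counts a library. Macrophage markers summed to 120 to 222 CPM against 240 to 515 CPM, with Lyz2 (1.43, adjusted p = 0.0401) higher, Cd163 (-2.44, adjusted p = 0.0479) lower and Mrc1 at -0.92 (adjusted p = 0.0522). Stromal markers summed to 829 to 937 CPM against 1066 to 1428 CPM, and 2 of 8 rose, Ly6a (1.31, adjusted p = 0.0204) and Cd34 (0.95, adjusted p = 0.0289), with Dcn at 0.25 (adjusted p = 0.448). Endothelial markers summed to 626 to 802 CPM against 824 to 850 CPM; 1 of 9 rose, Gpihbp1 (0.97, adjusted p = 0.0380), and 3 fell, among them Ptprb (-1.52, adjusted p = 0.0226) and Tek (-1.21, adjusted p = 0.0401). These calls are edgeR's, which called 1.63% of all genes higher and 7.52% lower. DESeq2 called 5 erythroid, 2 stromal, 1 macrophage and 1 endothelial marker higher, and 2 macrophage and 4 endothelial markers lower. limma-voom called 1 erythroid, 2 stromal and 1 endothelial marker higher, 1 endothelial marker lower and 0 macrophage markers. Over all genes, DESeq2 called 493 higher and 1349 lower of 11744, and limma-voom 113 higher and 619 lower of 12068. Without wild-type library 1, edgeR called 0 genes of any kind, these markers included. With offsets from the longest transcript 0 of these markers passed, and with those from the median transcript Ly6a and Cd34 did. Median log2 fold changes were 1.42 for erythroid, 0.26 for macrophage, 0.21 for stromal and -0.55 for endothelial markers. Offsets from the longest transcript gave 0.97, -0.35, 0.47 and -0.43 in that order, and those from the median transcript 1.19, -0.14, 0.39 and -0.52. Of the endothelial markers 3 were positive and 6 negative, although their sum was higher in each knockout-labelled library. The part of these cells in the carriers' values was not tested.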

How the data were processed

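RNA sequencing counts of 6 libraries were used, 3 labelled wild type and 3 labelled knockout, grouped and numbered by the labels. The authors deposited raw counts per Ensembl gene, 1 file per library, with no normalization. Per the submitters' processing notes, the tool named was STAR 2.5.4b and the genome build mm9; which counting program, strand setting and annotation followed was not given in the sources used here, so reads of overlapping genes on opposite strands cannot be told apart. Of 37620 identifiers, 32897 matched a symbol in GENCODE M21 (GRCm38), which also gave transcript lengths and GC; because the files are on mm9, the only coordinates printed are those of RefSeq promoters on GRCm38. No pair of libraries held identical values. The 3 libraries of a group are pools of mice, and nothing says how the pools were made up, so p-values measure the spread between these libraries.

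Counts were tested in R 4.3.3 with edgeR 4.0.16 over all genes that passed filterByExpr (minimum count 10, minimum total 15; 12068 genes), by a robust two-sided quasi-likelihood F test with TMM scaling and Benjamini-Hochberg adjustment at 0.05. CPM are on TMM-scaled library sizes. Ratios of related members used counts plus a constant of 0.5. Alternatives were RLE, upper-quartile and total-count scaling, DESeq2 1.42.0, limma-voom (limma 3.58.1), edgeR's legacy method, other filters on low counts, a threshold of 0.01, removal of mitochondrial genome genes, the replicate block, each library left out in turn, and offsets for transcript length and GC (mgcv 1.9.3, smooth terms of basis size 6, prior count 2). Pseudogenes were matched at 85% identity or more over at least 200 bases. The fit was tested on simulated data.

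The members, substrate groups, pathway lists and marker lists were chosen with earlier results of these data known. Named with all values were members past the threshold, the 5 smallest p in each direction, and the 8 highest per kb (Slc25a12, Slc25a13, Slc25a16, Slc25a23, Slc25a33, Slc25a34, Slc25a35, Slc25a44 and Slc25a48 were added after their values were seen); of each other list, the members past the threshold were counted and the 3 smallest p given. Some genes that these rules name are not reported here.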

Additional observations from a re-analysis of the deposited data

How the results depend on the processing

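In every alternative run, 0 members were lower, and 0 were higher except without wild-type replicate 2, where 1 was (Slc25a39); leaving out each library in turn thus gave 0 to 1 higher and 0 to 0 lower. With the replicate number as a replicate block, 0 members were higher, 0 lower and 2 had an unadjusted p under 0.05 (27.2% of all genes), with a smallest adjusted p of 0.0596. Same-numbered libraries had correlations of 0.145, -0.534 and 0.0318 in their deviations from the group means, so the numbers were not taken to pair them; the block left the ratios and the summed share in the same direction. The log2 ratio of Slc25a23 to Slc25a25 differed by -0.10 between labels and by -0.57 to 0.67 over the fits that leave out 1 library, reversing without wild-type replicate 3 (0.67) and without knockout-labelled replicate 1 (0.23). Of the 39 tested members, 11 changed sign with offsets from the longest transcript and 8 with those from the median one. Among the named genes, values changed sign with offsets from the longest transcript for Slc25a1 (-0.19), Slc25a4 (-0.023), Slc25a32 (0.47), Slc25a46 (0.12) and Tomm70a (0.16), and with offsets from the median transcript for Slc25a1 (-0.071), Slc25a32 (0.078), Slc25a46 (0.27), Sfxn1 (0.071) and Tomm70a (0.26). Slc25a51 turned to -0.057 with total counts, and it ranged from -0.058 to 0.28 over the fits that leave out 1 library, with the lowest value without knockout-labelled replicate 1. The cause of each was not tested. Over all genes, 197 were higher and 908 lower with TMM, and 29 and 1389 with total counts. Offsets gave 1 and 0 from the longest transcript, and 81 and 141 from the median one. Leaving out wild-type replicate 1 gave 0 and 0, and leaving out wild-type replicate 2 gave 688 and 1383. Without knockout-labelled replicate 3 the numbers were 2 and 0. With 3 libraries a group and member standard errors of at least 0.224, differences of modest size were not detectable.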
